A study of Mus musculus with 10 samples.

Results

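Lymphoid-primed multipotent progenitors (LMPPs) sorted as CD127+ were compared with LMPPs sorted as CD127-, over every gene that the arrays measured. The groups compared were 6 of the 10 arrays of the series, the 3 titled LMPP+s and the 3 titled LMPP-s. Each gene's value was the mean of the probe sets annotated to its symbol alone, which gave 23152 genes. Both LMPP groups were bone marrow cells of adult C57BL/6 mice that lacked lineage markers and stained highly for cKit, Sca-1 and Flt3, and they differed in the labels by CD127 alone. The other 4 arrays were common lymphoid progenitors (CLPs), low for cKit and Sca-1, high for Flt3 and CD127+, in a Ly6D- and a Ly6D+ group of 2 arrays each. All 4 groups were untreated cells of 1 strain, and total RNA was extracted with Trizol, labelled with biotin and hybridised to Affymetrix arrays. The fit behind the p-values took in all 10 arrays, CLPs included, with 1 estimate of the spread shared by the 4 groups. The labels do not say whether arrays of a group came from separate mice or separate sorts. The p-values therefore measure the spread between arrays within these 4 groups, which may be technical.

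The protein named CD127 binds interleukin 7 and pairs with the common γ chain to signal through JAK kinases and STAT5. LMPPs have largely lost the capacity to make platelets and red cells while keeping lymphoid and granulocyte-monocyte potential, and CD127 surface expression is a mark of progenitors committed toward the lymphoid lineages. The step toward B cells is known to involve the recombinase genes, terminal transferase and the transcription factor EBF1, while the step toward monocytes and granulocytes involves the macrophage colony-stimulating factor receptor, C/EBP factors and the azurophil granule proteases.

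Of the 23152 genes, 341 were called, 204 higher and 137 lower in CD127+ LMPPs. A gene was called where its adjusted p, from limma with Benjamini-Hochberg adjustment over all genes, was under the threshold of 0.05, and these calls came to 1.47% of genes tested, 0.881% higher and 0.592% lower. The difference was at least 2-fold for 106 of the genes called higher and 63 of those called lower, and the other 98 and 74 were called at smaller differences. The median difference was 1.02 log2 among genes called higher and -0.96 among those called lower, against -0.01 over all genes. Most genes differed little, 71.6% of them by no more than 0.25 log2 and 93.5% by no more than 0.5. A further 41 genes differed by 1 log2 or more without being called, and 2571 genes had an unadjusted p under 0.05.

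For each of the 341 called genes the arrays of the 2 groups did not overlap, but neither did those of many genes that were not called. Over all genes, 8.46% had all 3 CD127+ arrays above all 3 CD127- arrays and 9.27% had them below. The median called gene had 63.6% of its own probe sets separating the groups in its direction, where 6.12% of all probe sets did so upward and 6.48% downward. Genes were called on the mean of these same probe sets, so a higher share was fixed in advance and is no support for the calls. The same holds for the probe set counts of single genes below, which are descriptions. Of the called genes, 7 rested on 1 probe set. Tested one by one over the whole array, a fit chosen after seeing the data, 105 probe sets were called, or 0.0389%. The number of called genes fell whichever array was left out. It was 168 without CD127- array 1, 220 without CD127- array 2 and 275 without CD127- array 3. It was 177 without CD127+ array 1, 200 without CD127+ array 2 and 165 without CD127+ array 3. With each of the 6 arrays left out in turn, 131 genes stayed called. Each such fit has 1 array fewer, so a lost call does not show that it rested on that array. Below, where a call was lost when 1 array was left out, the array is named with the highest adjusted p that any single omission gave. The gene lists below were chosen with earlier results of these data known, so their counts and medians are descriptions and no independent support.

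**Figure D1:**
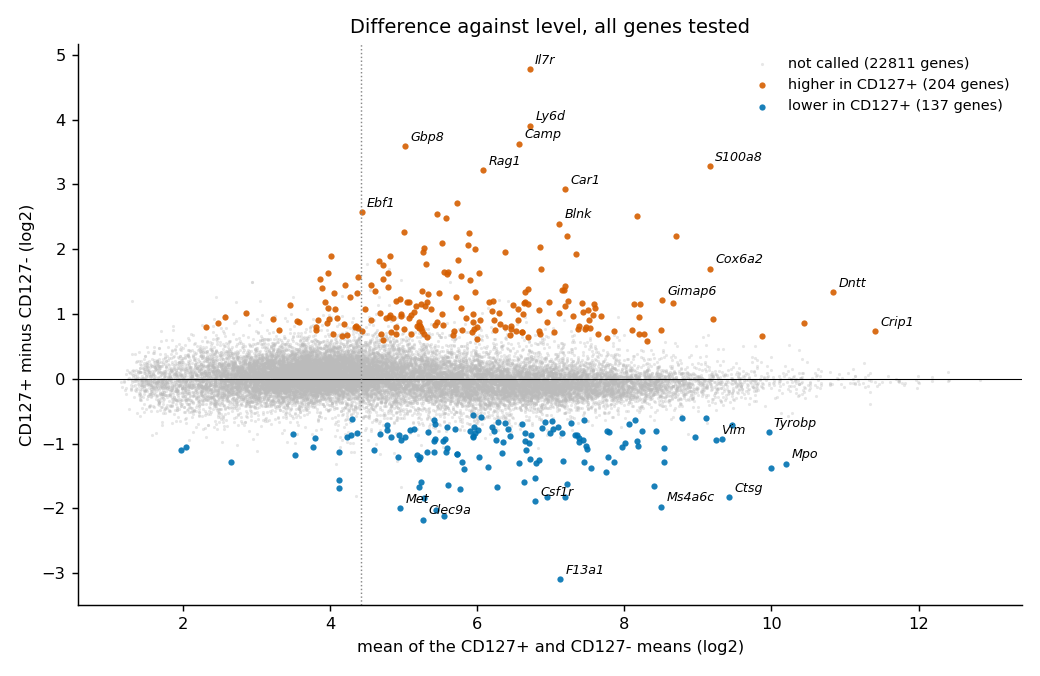
Each point is 1 of 23152 genes, placed by the mean of the CD127+ and CD127- means (x axis, log2) and by the difference CD127+ minus CD127- (y axis, log2). Orange points are the 204 genes called higher and blue points the 137 called lower, grey points were not called, and the dotted line is the low-signal limit of 4.42 log2. Il7r, Ly6d and Camp lie at the top and F13a1 at the bottom, and called genes lie at all levels from below the limit to above 11 log2.

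Sensory receptor genes, which bone marrow cells are not known to use, served as a reference for low signal. The 95th percentile of 1434 such genes was 4.42 log2, and 10371 genes lay under it in both LMPP groups. Where the dimmer group's mean lay under this limit, as for 67 called genes, the fold was taken against the limit and the value stands as a lower bound, written with the words at least, and no fold is given for the 21 called genes with both means under it. The 4 genes behind the sort behaved as follows. Il7r separated the groups, which restates the sort. Kit read 8.68, 8.74 and 8.67 on the CD127- arrays and 8.31, 8.40 and 8.27 on the CD127+ arrays (difference -0.37, SE 0.12, adjusted p = 0.262), and Flt3 read 9.73, 9.92 and 9.83 against 10.2, 10.2 and 10.1 (0.34, SE 0.12, adjusted p = 0.288). Neither passed, although in both the arrays of the groups did not overlap. Ly6a, which encodes Sca-1, read 5.64, 5.99 and 5.82 against 7.08, 6.41 and 7.58 (1.21, SE 0.34, adjusted p = 0.148). Of 56 measured markers of mature blood cells, 27 lay below the low-signal limit in each LMPP group, and the lists differed. They included 6 of 8 measured T cell markers, Cd3e, Cd3g, Cd4, Cd8a, Cd8b1 and Themis, and 6 of 9 B and plasma cell markers, but 1 of 11 neutrophil markers. Because RNA was taken from sorted populations in bulk, fewer cells of a type and less RNA per cell cannot be told apart in any value given here.

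Among 10 genes of the common γ chain family and its partner receptors, 3 rose in CD127+ LMPPs, Il7r, Il2rb and Il2rg, and 7 were not called. Il7r read 3.85, 4.70 and 4.43 on the CD127- arrays and 9.05, 9.15 and 9.10 on the CD127+ arrays. The groups lay at least 25.6-fold apart (difference 4.78 log2, SE 0.19, adjusted p = 1.03e-06), and all 10 of its probe sets separated them. Il2rg, which encodes the common γ chain that completes the interleukin 7 receptor, read 8.20, 8.08 and 8.08 against 9.05, 8.62 and 8.95, a 1.69-fold rise (0.76, SE 0.14, adjusted p = 0.0245). Il2rb, the shared β chain of the receptors for interleukins 2 and 15, rose by 0.76 log2 with both means under the low-signal limit (adjusted p = 0.0187). The rise of Il2rg was lost without any 1 of the CD127- arrays, or CD127+ array 1 or 3 (adjusted p up to 0.115). That of Il2rb was lost without CD127- array 1 or 3, or CD127+ array 2 or 3 (up to 0.0924).

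Of 20 JAK, STAT and SOCS genes, 3 rose and 17 were not called, with a list median of 0.04 log2 against -0.01 for all genes. The 3 were the cytokine-induced feedback inhibitors Cish, Socs2 and Socs3. Cish, a target of STAT5, read 4.30, 4.67 and 4.43 on the CD127- arrays and 5.70, 5.27 and 5.41 on the CD127+ arrays, a 1.99-fold rise (adjusted p = 0.0184). Socs2 rose at least 1.27-fold (adjusted p = 0.0333) and Socs3 1.53-fold (adjusted p = 0.0401). No kinase or STAT gene was called: Jak1 differed by 0.18 log2, Jak3 by 0.14, Stat5a by -0.38 and Stat5b by -0.41. The calls of Socs2 and Socs3 were lost whichever array was left out (adjusted p up to 0.175), and that of Cish without CD127- array 1 or 3, or CD127+ array 1 or 3 (up to 0.0942).

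Recombination genes gave some of the widest separations. Of 15 genes of V(D)J recombination and end joining, 5 rose, Rag1, Rag2, Xrcc5, Dntt and Xrcc6, and none fell. Rag1, 1 of the recombinase subunits, read 4.45, 4.35 and 4.60 on the CD127- arrays and 7.69, 7.72 and 7.65 on the CD127+ arrays. The rise was 9.31-fold (3.22 log2, SE 0.14, adjusted p = 1.03e-06), with a spread of 0.03 (SD, n = 3) among the CD127+ arrays. In CLPs Rag1 averaged 7.11 in the Ly6D- group and 9.71 in the Ly6D+ group. Rag2, the partner subunit, read 4.91, 5.58 and 5.71 against 7.07, 7.50 and 7.51, a 3.90-fold rise (1.96 log2, SE 0.22, adjusted p = 0.00116). Its CD127- arrays were more spread than those of Rag1, and no CD127- array reached any CD127+ array.

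Dntt, the terminal transferase that adds bases at the joins, was already bright in CD127- LMPPs. It read 9.93, 10.14 and 10.46 there and 11.53, 11.52 and 11.48 in CD127+ LMPPs, a 2.52-fold rise (1.34 log2, SE 0.15, adjusted p = 0.00116), and it averaged 11.51 and 11.58 in the Ly6D- and Ly6D+ CLPs. Both subunits of the Ku heterodimer, which binds broken DNA ends, rose as well. Xrcc5, for Ku80, read 4.85, 5.43 and 5.59 against 6.55, 6.45 and 6.92 (2.55-fold, adjusted p = 0.0115), and Xrcc6, for Ku70, read 6.75, 7.06 and 7.13 against 7.97, 7.67 and 7.73 (1.76-fold, adjusted p = 0.0184). The other end-joining genes were not called: Prkdc differed by -0.01 log2, Xrcc4 by 0.02, Lig4 by 0.51 and Dclre1c, for Artemis, by 0.16. The call of Xrcc5 was lost without CD127+ array 3 (adjusted p = 0.0685), and that of Xrcc6 without CD127- array 1 or CD127+ array 1 or 3 (up to 0.0887).

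Ebf1 was the 1 called gene among 18 transcription factors of the B lineage. It read 2.90, 3.33 and 3.20 on the CD127- arrays, all under the low-signal limit, and 5.80, 5.84 and 5.50 on the CD127+ arrays, at least 2.45-fold higher (2.57 log2, SE 0.16, adjusted p = 2.66e-05), and 16 of its 21 probe sets separated the groups. The factors that act with or before it had small differences: Tcf3, for the E2A proteins, 0.04 log2, Ikzf1 0.33, Foxo1 0.26, Bcl11a 0.30 and Runx1 -0.22. Pax5, which acts after EBF1 to commit cells to the B lineage, read 4.61, 4.68 and 4.99 against 4.59, 4.92 and 4.73, and its 2 groups overlapped (-0.01 log2, adjusted p = 0.986). In CLPs Ebf1 averaged 5.30 in the Ly6D- group and 7.85 in the Ly6D+ group. The median of the list was 0.08 log2.

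Of 19 genes of the pre-B cell receptor and its signalling, 5 rose and 14 were not called, with a median of 0.31 log2. Blnk, the adaptor that links the pre-B cell receptor to its downstream enzymes, read 5.88, 5.88 and 5.98 on the CD127- arrays and 8.27, 8.26 and 8.40 on the CD127+ arrays. That is a 5.26-fold rise (2.40 log2, SE 0.13, adjusted p = 9.37e-06), and all 19 of its probe sets separated the groups. Bank1, a B cell scaffold protein, rose at least 1.81-fold (1.45 log2, adjusted p = 0.00106). Vpreb2, a surrogate light chain gene, read 4.59, 4.48 and 4.74 against 5.48, 5.74 and 5.55 (1.98-fold, adjusted p = 0.00663), although 1 of its 4 probe sets separated the groups the other way. Ighm, which includes transcripts of the unrearranged heavy chain locus, rose 1.73-fold (adjusted p = 0.0147), and the coreceptor gene Cd72 1.61-fold (adjusted p = 0.0489).

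The other surrogate light chain and receptor genes were not called, Igll1 at 0.52 log2, Vpreb1 at 0.35, Vpreb3 at 0.55, Cd79a at 0.20 and Cd79b at -0.19, and neither were the kinase genes Syk (0.23) and Btk (-0.03). The calls of Ighm and Cd72 were lost with some arrays left out. That of Ighm was lost without CD127- array 1 or 3, or CD127+ array 2 or 3 (adjusted p up to 0.0783), and that of Cd72 without CD127- array 1 or 3, or any CD127+ array (up to 0.217). Of the 9 measured markers of mature B and plasma cells, 1 rose, Fcrl1, the median difference was 0.14 log2, and their summed linear signal was 264.9 to 289.2 on the CD127- arrays and 291.3 to 335.1 on the CD127+ arrays. Ms4a1, Cr2, Fcer2a, Igj, Prdm1 and Cd22 were below the low-signal limit in each LMPP group. The part of such cells in the result was not tested.

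Ly6d, the surface marker by which CLPs and not LMPPs were divided, was the 1 called gene among 28 of the Ly6 family. It read 4.77, 4.91 and 4.61 on the CD127- arrays and 8.67, 8.81 and 8.53 on the CD127+ arrays, a 14.98-fold rise (3.91 log2, SE 0.17, adjusted p = 1.03e-06). The CD127+ arrays lay between the CLP groups for this gene, since Ly6D- CLPs averaged 5.88 and Ly6D+ CLPs 11.33.

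Of 21 T lineage genes, Rag1, Lat, Cd247 and Cd28 rose and 17 were not called, with a median of 0.29 log2. Lat, the membrane adaptor of the T cell receptor, read 6.35, 6.36 and 6.71 on the CD127- arrays and 7.57, 7.85 and 8.29 on the CD127+ arrays (2.70-fold, adjusted p = 0.00339). Cd247, for the ζ chain of the receptor, rose 2.12-fold (adjusted p = 0.00804), though 3 of its 11 probe sets separated the groups upward and 1 downward. Cd28, a costimulatory receptor, read 5.85, 5.76 and 5.74 against 6.83, 6.96 and 6.60 (2.02-fold, adjusted p = 0.00308). Gata3 differed by 0.20 log2, Tcf7 by 0.54, Bcl11b by -0.30, Cd3e by -0.10 and Ptcra by 0.15, and none of these was called. Of 8 measured markers of mature T cells 1 rose, Cd6, which encodes a surface receptor (1.04 log2, adjusted p = 0.0157), and their summed linear signal was 138.4 to 164.4 on the CD127- arrays and 195.4 to 207.2 on the CD127+ arrays, with Cd3e, Cd3g, Cd4, Cd8a, Cd8b1 and Themis under the low-signal limit in both. Cd6 was named after its value was seen. The part of mature T cells in the result was not tested. The call of Cd6 was lost without CD127- array 1 or CD127+ array 1 or 3 (up to 0.0731).

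Hes1, a transcriptional repressor induced by Notch, was the 1 called gene among 18 Notch receptors, ligand modifiers and targets. It read 5.29, 5.11 and 5.24 on the CD127- arrays and 7.17, 6.81 and 6.55 on the CD127+ arrays, a 3.10-fold rise (1.63 log2, SE 0.18, adjusted p = 0.00116), with 7 of its 9 probe sets separating the groups upward and 1 downward. Other targets were not called: Dtx1 differed by 0.29 log2, Nrarp by -0.16, Hey1 by 0.48 and Notch1 itself by 0.46. Among 17 Id and other helix-loop-helix genes, Hes1 and Bhlhe40 rose while Id3 and Id1, inhibitors of E proteins, fell. Id3 read 6.17, 5.86 and 5.62 against 4.82, 5.08 and 4.98 (difference -0.92, SE 0.16, adjusted p = 0.0189), and Id1 fell by 0.71 log2 (adjusted p = 0.0447), whereas Id2 differed by 0.34 and was not called. Bhlhe40 rose 2.04-fold (adjusted p = 0.0211). The call of Id3 was lost without CD127- array 1 or 2, or CD127+ array 1 or 3 (adjusted p up to 0.0919), that of Id1 without CD127- array 1 or 2, or any CD127+ array (up to 0.202), and that of Bhlhe40 without CD127- array 2 or 3, or CD127+ array 1 or 3 (up to 0.079). Id1 and Id3 were also the 2 called genes among 24 of TGF-β and BMP signalling, with a median of 0.00 log2.

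Of 25 innate lymphoid and natural killer genes, 4 rose and 1 fell. Il18r1 and Il18rap, the 2 chains of the interleukin 18 receptor, rose together. Il18r1 read 4.85, 5.27 and 5.30 on the CD127- arrays and 6.69, 6.66 and 6.63 on the CD127+ arrays (2.87-fold, adjusted p = 0.000578), and Il18rap read 6.97, 6.88 and 7.17 against 8.16, 8.13 and 8.19 (2.22-fold, adjusted p = 0.00172). The transcription factor genes Ets1 (2.39-fold, adjusted p = 0.00427) and Tox (2.22-fold, adjusted p = 0.00851) rose as well. Klrk1, for the activating receptor NKG2D, read 5.28, 4.96 and 4.62 against 3.02, 3.22 and 3.58, at least 1.44-fold lower (-1.68 log2, adjusted p = 0.00238). These 5 calls held with each array left out. Zbtb16 (0.16 log2), Nfil3 (0.11), Rora (0.11), Eomes (-0.07) and Tbx21 (-0.09), factors of innate lymphoid development, were not called.

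**Figure D2:**
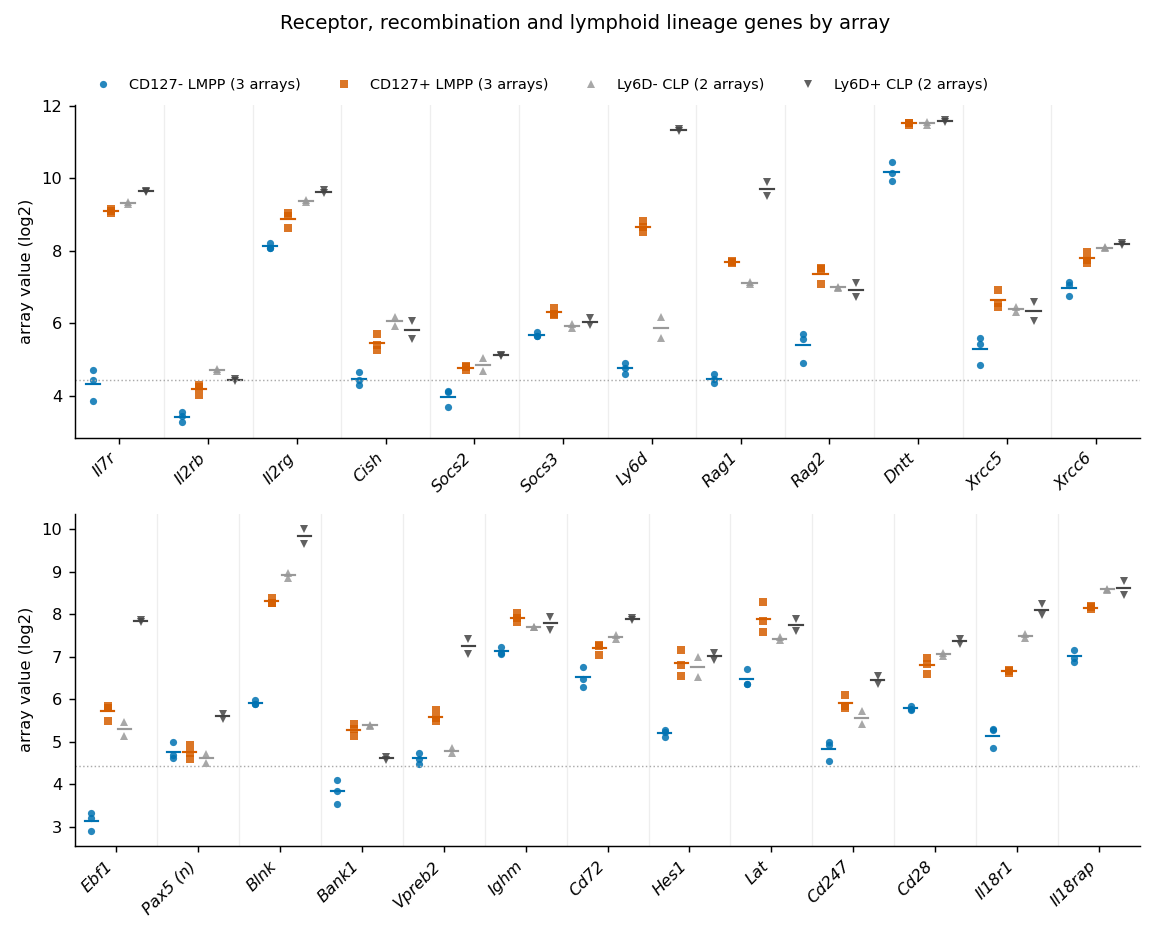
Array values (y axis, log2) of 25 receptor, recombination and lymphoid genes (x axis) in CD127- LMPPs, CD127+ LMPPs, Ly6D- CLPs and Ly6D+ CLPs, where each symbol is 1 array, short bars are group means, the dotted line is the low-signal limit and (n) marks a gene not called between the LMPP groups. For each called gene shown the 3 CD127+ arrays lie above the 3 CD127- arrays, whereas those of Pax5 overlap.

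Immune GTPases came next. Of 8 Gimap genes, which encode GTPases of lymphocyte survival and lie in 1 cluster on chromosome 6, 6 rose and none fell, and the median of the 8 was 1.16 log2 against -0.01 for all genes. Gimap6 read 7.65, 8.10 and 7.98 on the CD127- arrays and 9.40, 9.09 and 8.90 on the CD127+ arrays (2.33-fold, adjusted p = 0.00408). Gimap7 rose 3.55-fold (adjusted p = 0.0108), Gimap9 2.25-fold (adjusted p = 0.00345), Gimap5 2.22-fold (adjusted p = 0.0115) and Gimap1 2.19-fold (adjusted p = 0.00248). Gimap4 read 3.26, 3.29 and 3.01 against 4.62, 4.35 and 4.81, at least 1.13-fold higher (1.41 log2, adjusted p = 0.00185). Gimap8, at 0.79 log2, just missed the threshold (adjusted p = 0.0589), and Gimap3 differed by 0.31 (adjusted p = 0.729). The call of Gimap7 was lost without CD127+ array 3 (adjusted p = 0.0644) and that of Gimap5 without CD127- array 1 (0.0629). Between 5 and 7 of the 8 genes passed with each array left out. These genes are near copies of each other in part, so that probe sets of 1 may read another.

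Of 11 guanylate-binding protein genes, a family of interferon-inducible GTPases, 5 rose and none fell, with a median of 1.69 log2. Gbp8 read 2.28, 3.45 and 3.94 on the CD127- arrays and 6.14, 6.62 and 7.68 on the CD127+ arrays, at least 5.24-fold higher (3.59 log2, SE 0.46, adjusted p = 0.00247). Its arrays were spread by 0.85 (SD, n = 3) and 0.79 (SD, n = 3) within the groups, yet the groups did not overlap. Gbp4 rose at least 3.63-fold (adjusted p = 0.000168), Gbp9 at least 2.53-fold (adjusted p = 0.00192), Gbp6 at least 2.22-fold on its 1 probe set (adjusted p = 0.0195) and Gbp7 2.07-fold (adjusted p = 0.0147). Other members differed less or varied more: Gbp10 at 1.69 log2 (adjusted p = 0.0572) and Gbp11 at 1.78 (adjusted p = 0.132) were not called, and Gbp1, Gbp2, Gbp3 and Gbp5 differed by 0.01, 0.26, -0.19 and 0.04 log2. The call of Gbp6 was lost without CD127- array 1 or CD127+ array 2 or 3 (adjusted p up to 0.0991), and that of Gbp7 without CD127- array 2 or 3 or CD127+ array 3 (up to 0.0644). Gbp4, Gbp6, Gbp8, Gbp9, Gbp10 and Gbp11 are close paralogs, and their probe sets may share signal.

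The wider interferon response moved less. Of 32 genes, 4 rose, none fell and 28 were not called, with a median of 0.31 log2, and 15 had all CD127+ arrays above all CD127- arrays against 1 the other way, where 8.46% and 9.27% of all genes did so. Oas2, a sensor of double-stranded RNA, read 5.22, 5.13 and 5.34 on the CD127- arrays and 6.50, 6.23 and 6.24 on the CD127+ arrays (2.13-fold, adjusted p = 0.00251). Ifi44 rose 1.87-fold (adjusted p = 0.0115), Rtp4 1.83-fold (adjusted p = 0.0303) and Irf7, the factor that amplifies interferon production, 1.66-fold (adjusted p = 0.0347). Isg15 differed by 0.29 log2, Ifit1 by 0.41, Rsad2 by -0.04, Mx1 by 0.47, Stat2 by 0.28 and Irf9 by 0.29, and none of these was called. Differences on the list ran from -1.06 log2, not called, to 1.09 for Oas2. The calls of Rtp4 and Irf7 were lost whichever array was left out (adjusted p up to 0.142), and that of Ifi44 without CD127- array 1 or CD127+ array 1 or 2 (up to 0.0638).

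In antigen presentation, 1 of 16 class I genes rose, H2-Q6 (1.91-fold, adjusted p = 0.0434), and 1 of 11 class II genes, H2-Eb1 (1.65-fold, adjusted p = 0.033). H2-K1 (0.12 log2), H2-D1 (0.02) and B2m (0.04) were not called, nor was Ciita, the class II regulator (-0.05). Cd74, at 0.91 log2 the largest difference of the class II list, was not called either. H2-Q6 shares sequence with other Q genes and was read by 2 probe sets. The call of H2-Q6 was lost without CD127- array 1 or 2, or any CD127+ array (adjusted p up to 0.185), and that of H2-Eb1 without CD127- array 2 or 3, or any CD127+ array (up to 0.137).

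**Figure D3:**
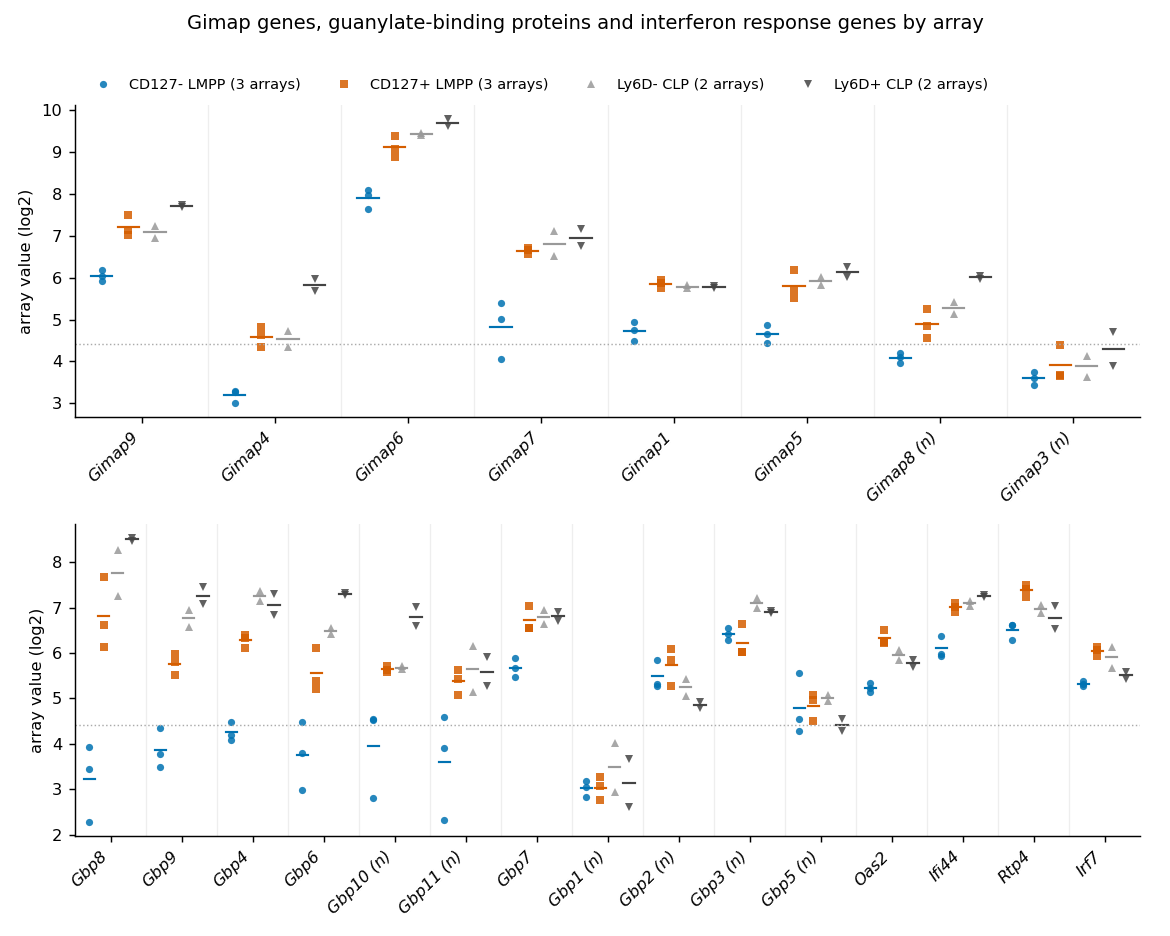
Array values (y axis, log2) of the 8 Gimap genes (upper panel), the 11 guanylate-binding protein genes and 4 interferon response genes (lower panel) in the 4 sorted groups, where each symbol is 1 array, short bars are group means, the dotted line is the low-signal limit and (n) marks a gene not called between the LMPP groups. Gbp8, Gbp9, Gbp4 and Gbp6 lie under the limit in the CD127- mean and above it in each CD127+ array, whereas Gbp1, Gbp2, Gbp3 and Gbp5 overlap between the LMPP groups.

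Dendritic cell genes went both ways: of 20, 2 rose and 2 fell. Clec9a, a receptor for dead cell material on conventional dendritic cells and their progenitors, read 6.27, 6.59 and 6.17 on the CD127- arrays and 4.45, 4.21 and 3.85 on the CD127+ arrays, at least 3.79-fold lower (-2.17 log2, SE 0.20, adjusted p = 0.000368). Irf8, the factor of dendritic cells and monocytes, read 8.64, 8.90 and 8.56 against 7.45, 8.12 and 7.43 (2.05-fold lower, adjusted p = 0.0257). Siglech, a plasmacytoid dendritic cell receptor, read 5.66, 5.37 and 5.74 against 6.22, 6.54 and 6.72 (1.87-fold higher, adjusted p = 0.0193), and was also the 1 called gene among 24 Siglec, LILR, CD300 and TREM receptors. Irf7, given above, was the other that rose, while Tcf4 (0.04 log2), Spib (0.16), Zbtb46 (-0.05) and Batf3 (-0.37) were not called. The call of Irf8 was lost without any 1 of the CD127- arrays, or CD127+ array 1 or 3 (adjusted p up to 0.122), that of Siglech without CD127- array 1 or 2, or CD127+ array 2 or 3 (up to 0.094), and that of Irf7 whichever array was left out (up to 0.139).

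By count, monocyte and macrophage genes held the most called members of the 55 lists. Of 28, 10 fell and none rose, where 0.592% of all genes were called lower, and the median was -0.33 log2. Larger shares were called among Gimap genes, 6 of 8, and guanylate-binding proteins, 5 of 11. F13a1, which encodes a clotting transglutaminase subunit made by monocytes, read 9.15, 8.77 and 8.10 on the CD127- arrays and 5.61, 5.70 and 5.45 on the CD127+ arrays. It was 8.54-fold lower (-3.09 log2, SE 0.26, adjusted p = 0.000168), and all 18 of its probe sets separated the groups. Ccr2, the chemokine receptor that draws monocytes out of the marrow, read 6.87, 6.75 and 6.22 against 4.92, 5.32 and 4.53 (3.23-fold lower, adjusted p = 0.00408). Ccl9 read 9.48, 9.15 and 9.04 against 7.82, 7.55 and 7.35 (3.14-fold lower, adjusted p = 0.00138).

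Slpi, a secreted protease inhibitor, fell 2.31-fold (adjusted p = 0.00144) and the lysosomal gene Cd68 1.94-fold (adjusted p = 0.00733). The signalling adaptor Tyrobp read 10.43, 10.42 and 10.26 on the CD127- arrays and 9.58, 9.59 and 9.48 on the CD127+ arrays (1.77-fold lower, adjusted p = 0.00769). Its partner Fcer1g fell 1.91-fold (adjusted p = 0.0147), Ly86 1.86-fold (adjusted p = 0.0152) and Cx3cr1 1.88-fold (adjusted p = 0.0375). Lyz2 (0.51 log2), Fcgr3 (-0.14), Mpeg1 (-0.05), Lgals3 (0.22) and Vcan (0.04) were not called, so the decrease did not extend over the whole list. Of 11 markers fixed for mature monocytes and macrophages 2 fell, Cd68 and Cx3cr1, and the summed linear signal was 1116 to 1776 on the CD127- arrays and 805.6 to 868.5 on the CD127+ arrays. Emr1, Fcgr1, Mertk, Vcam1 and C1qc were below the low-signal limit in each LMPP group, and the part of mature cells in the result was not tested. The calls of Fcer1g and Ly86 were lost without CD127- array 1 or 2, or CD127+ array 1 or 3, as was that of Cx3cr1 (adjusted p up to 0.147).

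Receptors and factors of the myeloid lineage followed in part. Of 19 myeloid cytokine receptors 3 fell and 1 rose, with a median of -0.33 log2. Csf1r, the receptor for macrophage colony-stimulating factor, read 7.81, 7.93 and 7.47 on the CD127- arrays and 5.86, 5.95 and 5.72 on the CD127+ arrays (3.71-fold lower, adjusted p = 0.000154), and 21 of its 24 probe sets separated the groups. Il6ra, the interleukin 6 receptor, fell 2.43-fold (adjusted p = 0.00856) and Ifngr2, a chain of the interferon γ receptor, 1.78-fold (adjusted p = 0.033), whereas the decoy receptor Il1r2 rose 1.96-fold (adjusted p = 0.0142). Csf2ra differed by 0.03 log2, Csf3r by -0.50, Csf2rb by -0.45 and Il3ra by -0.33, and none was called. The call of Il6ra was lost without CD127+ array 3 (adjusted p = 0.0548), that of Il1r2 without CD127- array 2 or CD127+ array 1 or 3 (up to 0.0774), and that of Ifngr2 without CD127- array 1 or 2, or any CD127+ array (up to 0.14).

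Of 21 myeloid transcription factors 6 fell and 1 rose. Tfec, a factor of the MITF family found in macrophages, read 7.35, 6.15 and 6.31 on the CD127- arrays and 4.846, 4.403 and 4.196 on the CD127+ arrays (4.35-fold lower, adjusted p = 0.0064). Cebpa, which is needed for granulocyte and monocyte progenitors to form, read 5.82, 5.93 and 5.90 against 4.72, 4.57 and 4.97 (2.19-fold lower, adjusted p = 0.0194), and Cebpd fell 2.18-fold on its 1 probe set (adjusted p = 0.0232). Zeb2 fell 1.81-fold (adjusted p = 0.0184), and Irf8 and Id1 are given above. Cebpb (-0.23 log2), Cebpe (0.59), Gfi1 (-0.09) and Klf4 (0.41) were not called, and Nr4a1, an orphan receptor induced by stimulation, rose. Of these calls, that of Tfec held with each array left out. Each of the 6 arrays ended at least 1 of the others: Cebpa was lost without any CD127- array or CD127+ array 1 or 2 (adjusted p up to 0.0889), Cebpd without CD127- array 1 or 2 or CD127+ array 2 or 3 (up to 0.116), and Zeb2 without CD127- array 1 or 2 or any CD127+ array (up to 0.0942).

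Of 18 primary granule genes, which promyelocytes express, 4 fell and none rose, with a median of -0.15 log2. Ctsg, for cathepsin G, read 10.63, 10.28 and 10.13 on the CD127- arrays and 8.52, 8.55 and 8.48 on the CD127+ arrays (3.56-fold lower, adjusted p = 0.000165). Mpo, for myeloperoxidase, read 11.04, 10.82 and 10.71 against 9.51, 9.72 and 9.40 (2.48-fold lower, adjusted p = 0.00144), and 16 of its 17 probe sets separated the groups. Prtn3, for proteinase 3, read 8.95, 8.38 and 8.13 against 7.49, 7.58 and 7.23 (2.08-fold lower, adjusted p = 0.0375), and Mcpt8, a basophil protease on the same list, fell 3.00-fold (adjusted p = 0.000396). Elane, for neutrophil elastase, a neighbour of Prtn3 in the genome, read 8.70, 7.04 and 6.43 against 8.06, 7.80 and 7.68 (0.46 log2, adjusted p = 0.769): its groups overlapped and its CD127- arrays were spread by 1.18 (SD, n = 3). The call of Prtn3 was lost without CD127- array 1 or 2, or any CD127+ array (adjusted p up to 0.156).

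Of 19 late granule genes, which later neutrophil stages express, 7 rose, none fell and 12 were not called, with a median of 0.55 log2. The difference between the primary and late granule lists was not tested. Camp, for cathelicidin, read 4.34, 5.61 and 4.32 on the CD127- arrays and 8.04, 8.81 and 8.31 on the CD127+ arrays (12.4-fold, adjusted p = 0.00065). S100a8 read 7.37, 9.11 and 6.08 against 10.77, 11.08 and 10.55 (9.71-fold, adjusted p = 0.019), and S100a9, its partner in calprotectin, read 6.73, 7.79 and 6.23 against 9.55, 9.60 and 9.15 (5.73-fold, adjusted p = 0.00802). The fold of S100a8 rested on single CD127- arrays, at 16.85 without array 2 and 5.89 without array 3. CD127- array 2 was the highest of its group for Camp, S100a8, S100a9 and Ngp, and CD127+ array 2 the highest of its own for the same 4 genes.

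Chi3l3 rose at least 6.32-fold (adjusted p = 0.00571), Ngp, for neutrophilic granule protein, at least 4.93-fold (adjusted p = 0.00134), Retnlg 4.26-fold (adjusted p = 0.0412) and Lcn2, for lipocalin 2, at least 3.39-fold (adjusted p = 0.0142). Ltf, for lactoferrin, at 1.53 log2 was not called (adjusted p = 0.0615), and neither were Mmp8 (-0.64), Mmp9 (0.32), Cxcr2 (-0.51), Itgam (-0.25) and Ly6g (1.07). Of the 11 genes fixed as markers of mature neutrophils, which overlap with this list, 6 rose and none fell. Their summed linear signal was 321.9 to 1071 on the CD127- arrays, 2715 to 4051 on the CD127+ arrays and 424.4 to 728.5 on the 4 CLP arrays, and Fpr1 was under the low-signal limit in both LMPP groups. The part of mature neutrophils in these values was not tested. Lcn2 was named after its value was seen. The call of S100a8 was lost without CD127- array 1 or any CD127+ array (adjusted p up to 0.0839), that of Lcn2 without CD127+ array 2 (0.0606) and that of Retnlg whichever array was left out (up to 0.177). S100a8 and S100a9 were also the 2 called members of the 16 measured S100 genes, whose median was -0.01 log2.

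Of 19 erythroid genes and carbonic anhydrases 4 rose and none fell, 18 had a positive difference, and the median was 0.55 log2. Car1, for carbonic anhydrase 1, read 5.70, 5.86 and 5.63 on the CD127- arrays and 8.93, 8.06 and 8.97 on the CD127+ arrays (7.60-fold, adjusted p = 0.000274), and averaged 4.93 and 4.32 in the Ly6D- and Ly6D+ CLPs. Ermap, an erythroid membrane protein gene, rose 2.27-fold (adjusted p = 0.00477) and the Rh complex genes Rhd 2.26-fold (adjusted p = 0.0347) and Rhag at least 1.13-fold (1.08 log2, adjusted p = 0.0173). CD127+ array 2 was the lowest of its group for all 4. Klf1 (0.77 log2, adjusted p = 0.0686), Gata1 (0.68), Epor (0.73) and Alas2 (0.34) were not called. Of 9 erythroid cell markers 4 were measured, none was called and Epb4.2 was below the low-signal limit in each LMPP group. Their summed linear signal was 74.1 to 90.6 on the CD127- arrays, 105.5 to 127.1 on the CD127+ arrays and 90.2 to 100.8 on the CLP arrays, and the part of erythroid cells in the result was not tested. The call of Rhd was lost without any 1 of the CD127- arrays, or CD127+ array 1 or 3, and that of Rhag without CD127- array 2 or 3, or CD127+ array 1 or 3 (adjusted p up to 0.142).

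Mast cell, basophil and eosinophil genes were mixed, with 2 of 17 higher and 1 lower. Prg2, for eosinophil major basic protein, read 4.62, 4.41 and 3.99 on the CD127- arrays and 6.18, 7.10 and 7.16 on the CD127+ arrays, at least 5.25-fold higher (adjusted p = 0.0264). Cpa3, the mast cell carboxypeptidase, rose 1.96-fold (adjusted p = 0.0307), and Mcpt8, given above, fell. Epx (0.58 log2), Fcer1a (0.46) and Ms4a2 (0.03) were not called. Of the 7 mast cell and basophil markers 1 rose and 1 fell, Mcpt4, Fcer1a, Ms4a2, Tpsb2 and Cma1 were below the low-signal limit in each LMPP group, and their summed linear signal was 216.8 to 242.7 on the CD127- arrays and 132.7 to 146.2 on the CD127+ arrays. Among 21 megakaryocyte and platelet genes Plek fell 1.52-fold (adjusted p = 0.0401) and none rose, and Pf4 (0.89 log2) and Itga2b (-0.02) were not called. None of the 6 megakaryocyte and platelet markers was called, Ppbp, Itga2b and Gp1bb were below the low-signal limit in each LMPP group, and the median difference was 0.34 log2. Their summed linear signal was 140.6 to 176.2 on the CD127- arrays, 201 to 242.5 on the CD127+ arrays and 127.2 to 135.4 on the CLP arrays. The part of mast cells, basophils and megakaryocytes in these values was not tested. The calls of Cpa3 and Plek were lost whichever array was left out (adjusted p up to 0.171), and that of Prg2 without any CD127- array or CD127+ array 2 or 3 (up to 0.13).

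**Figure D4:**
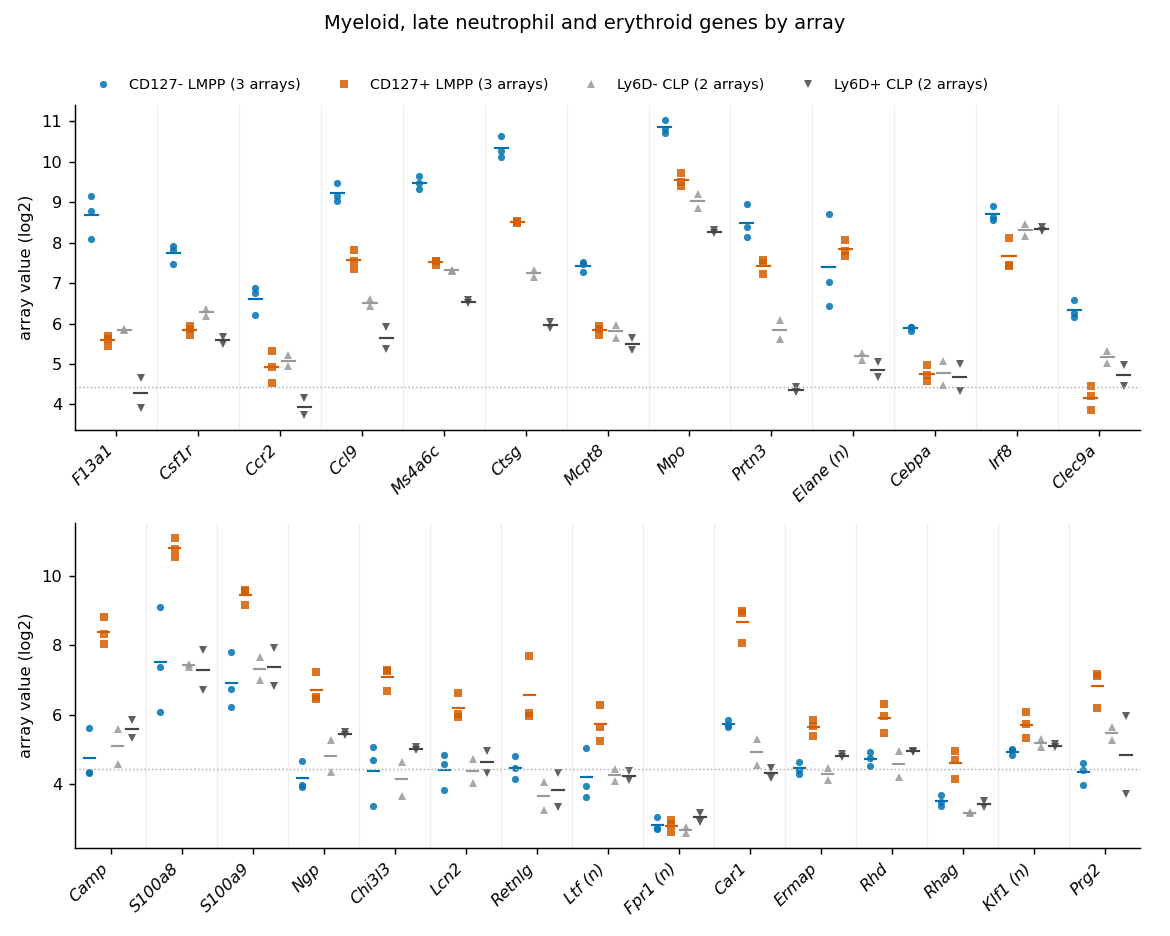
Array values (y axis, log2) of monocyte, primary granule and myeloid factor genes (upper panel) and of late neutrophil, erythroid and eosinophil genes (lower panel) in the 4 sorted groups, where each symbol is 1 array, short bars are group means, the dotted line is the low-signal limit and (n) marks a gene not called between the LMPP groups. In the upper panel the CD127+ arrays lie below the CD127- arrays for each called gene, and in the lower panel they lie above both the CD127- and the CLP arrays for Camp, S100a8, S100a9, Car1 and Prg2.

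None of 24 stem and multipotent progenitor genes and none of 38 Hox genes was called, with medians of 0.16 and 0.05 log2. Cd34 differed by -0.17 log2, Meis1 by 0.27, Mecom by 0.16, Hlf by -0.20 and Hoxa9 by 0.55. By unadjusted p under 0.05, 8 of the stem and progenitor genes and 2 of the Hox genes passed, where 11.1% of all genes did.

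Surface and migration genes differed in a few members of each family, where 1.47% of all genes were called. Of 25 chemokine receptors and homing genes 4 fell, Ccr2, S1pr3, Gpr183 and Cx3cr1, and Cxcr5 rose 1.61-fold (adjusted p = 0.038). S1pr3, a sphingosine phosphate receptor, read 6.70, 6.86 and 6.30 on the CD127- arrays and 5.60, 5.42 and 5.23 on the CD127+ arrays (2.30-fold lower, adjusted p = 0.0173), and Gpr183, the oxysterol receptor, fell 1.92-fold (adjusted p = 0.00851). Ccr9, a receptor for entry to the thymus, at 1.14 log2 was not called (adjusted p = 0.0679), nor was Cxcr4 (-0.44). Among 31 TNF superfamily genes Tnfsf11, for RANK ligand, read 4.91, 4.60 and 4.86 against 6.56, 6.22 and 6.43 (3.07-fold higher, adjusted p = 0.000577), while Tnfsf9, for 4-1BB ligand, was at least 3.41-fold lower (adjusted p = 0.00825). The call of Cxcr5 was lost whichever array was left out (adjusted p up to 0.17), that of S1pr3 without CD127- array 1 or 2, or CD127+ array 2 or 3 (up to 0.094), and that of Cx3cr1 without CD127- array 1 or 2, or CD127+ array 1 or 3 (up to 0.147).

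Nrp1, a co-receptor for semaphorins and vascular growth factors, read 6.69, 6.45 and 6.22 on the CD127- arrays and 4.50, 4.37 and 4.43 on the CD127+ arrays (4.06-fold lower, adjusted p = 0.000116), and 2 of the other 30 semaphorin, plexin and neuropilin genes, Sema4a (1.93-fold, adjusted p = 0.00642) and Sema3d (at least 1.395-fold, adjusted p = 0.0117), rose. Of 20 sialyltransferases, which cap surface glycans, St6gal1 rose at least 3.27-fold (2.27 log2, adjusted p = 7.11e-05) and St3gal6 at least 2.08-fold (adjusted p = 0.000965). St6gal1 read 3.55, 4.07 and 3.96 against 6.25, 6.08 and 6.06, and the 18 other members differed by between -0.34 and 0.60 log2 without a call. Of 31 C-type lectins Clec9a and Clec7a, the β-glucan receptor Dectin-1 (3.02-fold lower, adjusted p = 0.0064), fell, and of 18 Ms4a genes Ms4a6c (3.93-fold lower, adjusted p = 3.22e-05) and Ms4a6b (2.46-fold lower, adjusted p = 0.00498) fell. List medians were 0.07 log2 for semaphorins, plexins and neuropilins, 0.01 for sialyltransferases, -0.10 for C-type lectins and 0.07 for Ms4a genes. Of all genes, 1.47% were called. The call of Sema3d was lost without CD127- array 1 or CD127+ array 1 or 3 (adjusted p up to 0.0638).

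Toll-like receptor genes divided, with Tlr7, a sensor of single-stranded RNA, 2.23-fold higher (adjusted p = 0.00948) and Unc93b1, the chaperone that carries such receptors to endosomes, 1.74-fold lower (adjusted p = 0.0176), among 21 genes that also hold Ly86. Of 24 cathepsins and lysosomal proteases Ctsg and Ctsh (2.42-fold, adjusted p = 0.00325) fell and Ctsw, a cathepsin of cytotoxic lymphocytes, rose 2.28-fold (adjusted p = 0.00932). None of 27 integrins, 12 SLAM family genes and 22 Eph receptors and ephrins was called, where 1.47% of all genes were. An unadjusted p under 0.05 was found for 8 of 27, 2 of 12 and 2 of 22 in that order, where 11.1% of all genes had one. The calls of Unc93b1, Ly86 and Ctsw were lost without CD127- array 1 (adjusted p up to 0.0774 for Ly86 and up to 0.0854 for Unc93b1 over single omissions). Unc93b1 was also lost without CD127- array 2 or CD127+ array 2 or 3, Ly86 without CD127- array 2 or CD127+ array 1 or 3, and Ctsw without CD127+ array 3 (up to 0.0568).

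Genes induced by stimulation changed in the Nr4a family. Of 24 immediate early genes 3 rose, Nr4a1, Nr4a2 and Nr4a3, and Klf6 fell. Nr4a1 read 9.98, 10.07 and 9.99 on the CD127- arrays and 11.12, 10.84 and 10.67 on the CD127+ arrays (1.82-fold, adjusted p = 0.0141), Nr4a3 rose 2.09-fold (adjusted p = 0.0184) and Nr4a2 1.68-fold (adjusted p = 0.0426). Fos (-0.06 log2), Jun (-0.02), Egr1 (0.33), Ier2 (0.22) and Atf3 (0.02), on the same list, were not called. The part of cell handling in these values was not tested. Of 17 genes of ERK feedback Rasgrp3 (at least 1.14-fold, adjusted p = 0.0333) and Spry1 (1.68-fold, adjusted p = 0.0397) rose, and Dusp6 differed by 0.01 log2. Mt2 rose 4.08-fold (2.03 log2, adjusted p = 0.00948) among 28 metallothioneins and zinc transporters, where Mt1 differed by 0.12, and Slc30a4 rose 1.71-fold (adjusted p = 0.0195). The calls of Nr4a2, Klf6 and Spry1 were lost whichever array was left out (adjusted p up to 0.183). Those of Nr4a1 and Nr4a3 were lost without CD127- array 1 or CD127+ array 1, among others (up to 0.0925), that of Rasgrp3 without any CD127- array or CD127+ array 1 or 3 (up to 0.139), that of Mt2 without CD127+ array 3 (0.062) and that of Slc30a4 without any CD127- array or CD127+ array 1 or 2 (up to 0.0982).

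Proliferation genes mostly differed by small amounts, toward lower values in CD127+ LMPPs. Of 36 genes of DNA replication and mitosis 1 fell, E2f8 (1.55-fold, adjusted p = 0.0439), and none rose, where 1.47% of all genes were called. A negative difference was found for 33 of the 36, and the median was -0.22 log2. All CD127+ arrays lay below all CD127- arrays for 11, where 9.27% of all genes did so, and above them for none, where 8.46% did. No test of the list was run. Mki67 differed by -0.09 log2, Mcm2 by -0.27, Pcna by -0.02 and Rrm2 by -0.62 (adjusted p = 0.0561). Ccnd1, for cyclin D1, read 7.21, 7.22 and 6.95 on the CD127- arrays and 6.39, 6.06 and 6.06 on the CD127+ arrays (1.94-fold lower, adjusted p = 0.00832), the 1 call among 17 cyclin D, CDK4/6 and inhibitor genes, with Ccnd2 at -0.06 and Ccnd3 at 0.08. None of 30 histone genes was called (median -0.19 log2), and 8 of them lay wholly lower on the CD127+ arrays, where 9.27% of all genes did. The call of E2f8 was lost whichever array was left out (adjusted p up to 0.202).

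Metabolic and housekeeping lists held 1 call or none each, where 1.47% of all genes were called. Hk3, a hexokinase of myeloid cells, was the 1 call among 20 glycolysis genes (2.61-fold lower, adjusted p = 0.00212), with a list median of -0.23 log2. Cox6a2, a subunit of cytochrome oxidase known from muscle, was the 1 call among 84 nuclear genes of oxidative phosphorylation. It read 8.27, 8.61 and 8.07 on the CD127- arrays and 10.06, 10.06 and 9.92 on the CD127+ arrays (3.24-fold, adjusted p = 0.000274), and averaged 10.07 and 10.56 in the Ly6D- and Ly6D+ CLPs. No gene was called by limma among 67 cytoplasmic ribosomal proteins, 23 PI3K, AKT and FOXO genes, 18 of the Bcl2 family, 22 of the stress response, 19 of cholesterol synthesis, 30 of Polycomb and DNA methylation, and 83 small nucleolar and Cajal body RNAs. At an unadjusted p under 0.05 the counts in these lists were 2, 4, 4, 4, 2, 4 and 7 in that order, beside 11.1% of all genes. In the Bcl2 family Bcl2 differed by -0.40, Mcl1 by 0.03 and Bcl2l11 by 0.42 log2.

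**Figure D5:**
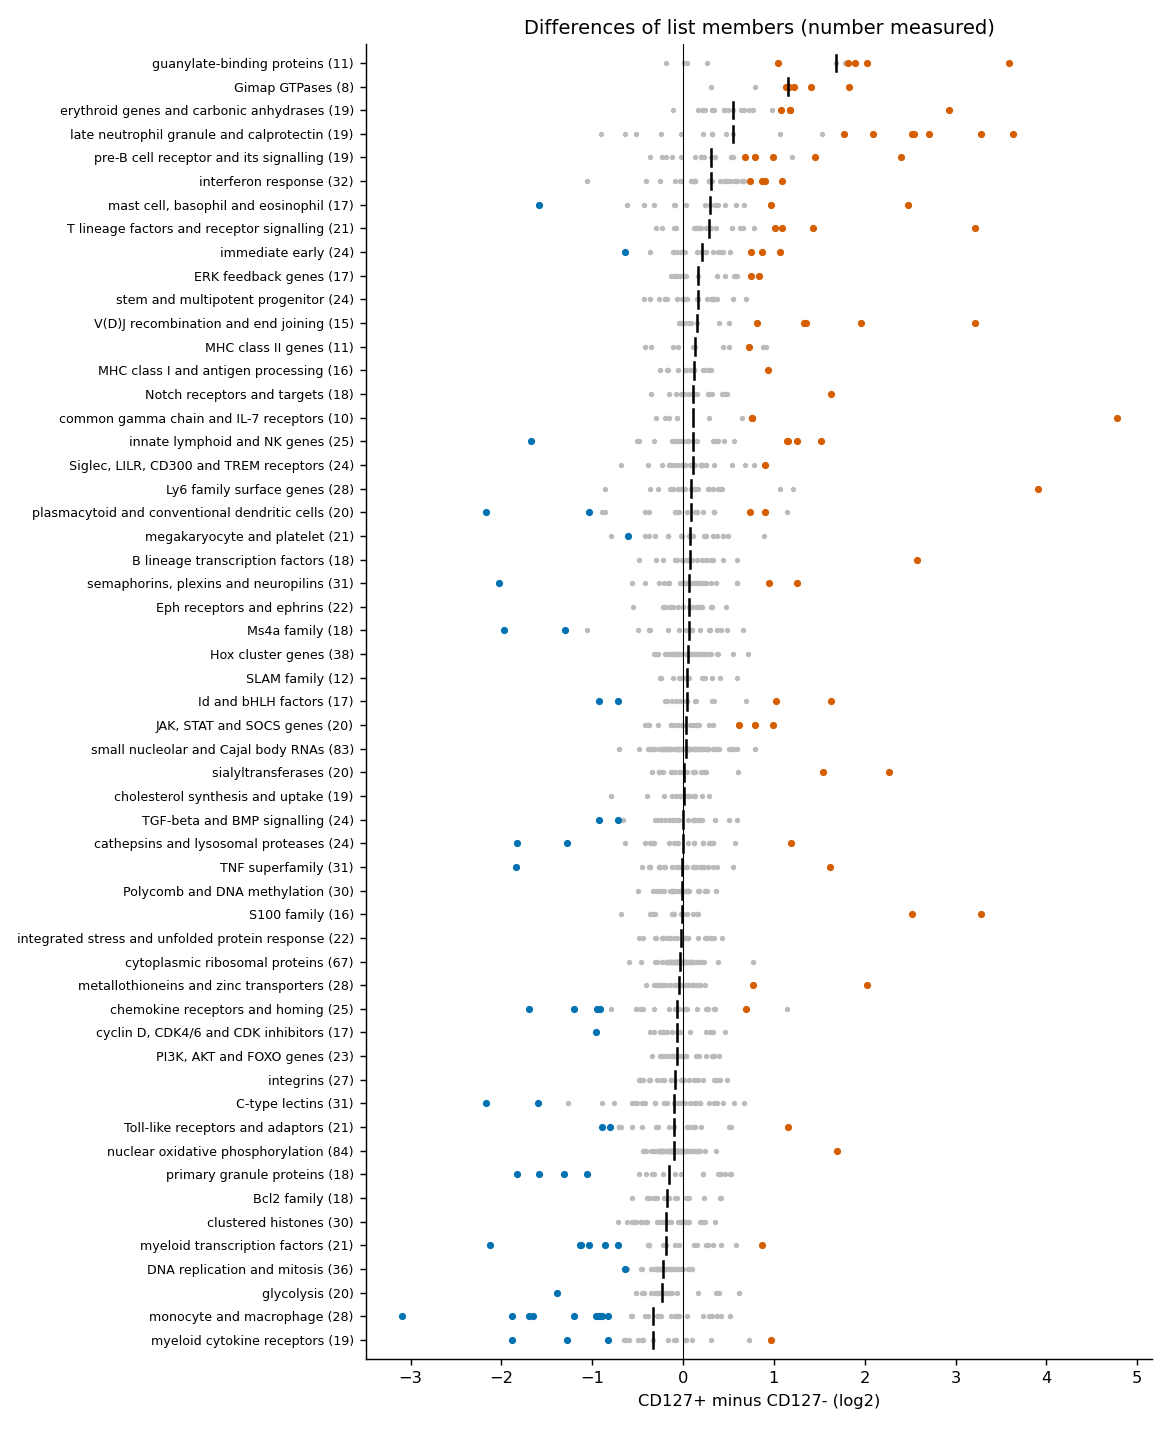
Each row is 1 of the 55 gene lists with its number of measured genes, ordered by the list's median difference (black bar), and each point is 1 gene placed by its difference CD127+ minus CD127- (x axis, log2). Orange points were called higher, blue points called lower and grey points not called. The guanylate-binding proteins (median 1.69) and the Gimap genes (1.16) lie at the top, and the monocyte and macrophage genes and myeloid cytokine receptors (both -0.33) at the bottom.

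The lists together held 114 of the 341 called genes, and the other 227 were on none. Of the 15 largest differences in each direction, Arpp21 rose from 4.69, 4.48 and 5.12 on the CD127- arrays to 6.92, 7.01 and 7.10 on the CD127+ arrays (4.76-fold, adjusted p = 8.01e-05). Met, the receptor for hepatocyte growth factor, read 6.11, 6.13 and 5.60 against 3.70, 4.21 and 3.93 (at least 2.88-fold lower, adjusted p = 0.00046). Rab44 read 8.11, 8.16 and 8.03 against 6.31, 6.32 and 6.20 (3.54-fold lower, adjusted p = 0.000168). Anxa3, an annexin, fell 3.55-fold (adjusted p = 0.00251), Rassf4 3.17-fold (adjusted p = 0.00363) and the peroxisomal transporter gene Abcd2 at least 3.08-fold (adjusted p = 0.00878).

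Further called genes on no list were chosen here after their values were seen. Cmah, the hydroxylase that makes N-glycolylneuraminic acid, read 6.07, 6.10 and 6.19 on the CD127- arrays and 8.29, 8.41 and 8.28 on the CD127+ arrays (4.61-fold, adjusted p = 7.39e-06). Myl10 rose 4.61-fold (adjusted p = 0.000578), Igf2r at least 3.54-fold with 28 of its 47 probe sets separating the groups (adjusted p = 0.000154), and the chemokine gene Xcl1 3.25-fold (adjusted p = 0.00138). The lymphocyte signalling genes Sla2 (2.53-fold, adjusted p = 0.000368) and Prkca (2.51-fold, adjusted p = 0.000788) rose as well. Among genes that fell, Lgals1, for galectin 1, read 10.71, 10.75 and 10.59 against 9.36, 9.40 and 9.15 (2.60-fold, adjusted p = 0.00065), Anxa2 fell 2.35-fold (adjusted p = 0.00116), Hexa, a lysosomal hexosaminidase, 2.09-fold (adjusted p = 0.00512), and Card9, an adaptor of innate immunity, 2.24-fold (adjusted p = 0.00613). These calls held with each array left out.

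Differences of under 2-fold were also called in genes with high signal. Vim, for vimentin, read 9.67, 9.82 and 9.65 on the CD127- arrays and 8.92, 8.69 and 8.72 on the CD127+ arrays (1.91-fold lower, adjusted p = 0.00645). Ctr9, a subunit of the transcription elongation complex PAF1, read 7.66, 7.78 and 7.74 against 8.64, 8.70 and 8.71 (1.94-fold higher, adjusted p = 0.00413), and 19 of its 23 probe sets separated the groups. Crip1 read 10.94, 11.14 and 11.02 against 11.78, 11.76 and 11.78 (1.67-fold higher, adjusted p = 0.0131). Cd69, an early activation marker, rose 1.59-fold (adjusted p = 0.0313), Ifi27l1 1.61-fold (adjusted p = 0.0228), Tapt1 1.61-fold (adjusted p = 0.022) and Zbtb10 1.498-fold (adjusted p = 0.0401), while Glipr1 fell 1.63-fold (adjusted p = 0.0299) and Tspo 1.74-fold (adjusted p = 0.0325). Vim and Ctr9 stayed called with each array left out. Cd69, Ifi27l1, Tapt1 and Zbtb10 were lost whichever array was left out (adjusted p up to 0.148), Crip1 without CD127- array 1 or any CD127+ array (up to 0.0716), Glipr1 without any CD127- array or CD127+ array 2 or 3 (up to 0.14) and Tspo without CD127- array 1 or 2, or any CD127+ array (up to 0.145).

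Called genes were placed by their order in the RefSeq gene table of GRCm38.p6, used for neighbours alone. Of 326 called genes among 19715 protein-coding genes so placed, 39 lay in 16 runs of neighbours called in the same direction. There were 19 adjacent pairs in which both rose, 4 in which both fell and 6 with opposite calls. How many runs unrelated neighbours would give was not tested. Genes in this paragraph that stand nowhere else in the text were named after their values were seen. The longest run was Gimap9, Gimap4, Gimap6, Gimap7, Gimap1 and Gimap5 on chromosome 6, then Abcg3, Gbp8, Gbp9 and Gbp4 on chromosome 5. Arhgap31, B4galt4 and Upk1b on chromosome 16 fell together. Other pairs included Rag2 and Rag1 on chromosome 2, Blnk and Dntt on chromosome 19, Il18r1 and Il18rap on chromosome 1 and S100a8 and S100a9 on chromosome 3, which rose, and F13a1 and Ly86 on chromosome 13 and Mcpt8 and Ctsg on chromosome 14, which fell. The pairs not named in this paragraph also rose. Capsl, the neighbour of Il7r on chromosome 15, rose as well (2.28-fold, adjusted p = 0.0397), a call that was lost whichever array was left out (up to 0.176). The calls of Abcg3, Arhgap31 and Upk1b were also lost on leaving out 1 array, CD127+ array 3 among others (adjusted p up to 0.153).

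Promoters were searched for short motifs in the 250 bases before each RefSeq start site on GRCm38.p6, on both strands, for 21502 promoters of 17713 tested genes, of which 246 were called. The letters GAGGAAGT, a form of the PU.1 site, stood in 2.32% of all promoters, 4.62% of promoters of genes called higher and 7.27% of those called lower. The last 2 shares are 9 of 195 promoters of 152 genes and 8 of 110 promoters of 94 genes. Shares are of promoters, so a gene with several start sites counts more than once. Those of a RUNX site, TGTGGT, stood in 12.04%, 20% and 11.8%, and those of a C/EBP site, TTGCNNAA, in 9.06%, 14.9% and 6.36%. The interferon response letters GAAANNGAA gave 6.86%, 7.69% and 13.6%, and the ETS-IRF letters GGAANNGAA 6.53%, 6.15% and 10.9%. Shares for an EBF site, CCCNNGGG, were 13.8%, 16.9% and 18.2%, for the E-box CANCTG 42.3%, 48.2% and 49.1%, for the ETS letters GGAAGT, which the PU.1 letters contain, 20.5%, 25.1% and 24.6%, and for a GATA site, AGATAA, 8.65%, 11.3% and 5.46%. The ETS-IRF and interferon letters also overlap in part. These shares describe letters in a window and were not tested.

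Stretches of 100 bases around such letters are shown, 5′ to 3′ on the gene's strand, for 2 granule genes that fell and a B lineage coreceptor gene that rose, each with the PU.1 letters, for an interferon gene with the ETS-IRF letters and for Ebf1 with the RUNX letters, the match in capitals. Matches on the opposite strand appear as the reverse complement. They lie at chr11:87793534-87793633 on the plus strand (Mpo), chr10:79879532-79879631 on the plus strand (Prtn3), chr4:43454627-43454726 on the minus strand (Cd72), chr3:151749911-151750010 on the minus strand (Ifi44) and chr11:44618000-44618099 on the plus strand (Ebf1).
Mpo: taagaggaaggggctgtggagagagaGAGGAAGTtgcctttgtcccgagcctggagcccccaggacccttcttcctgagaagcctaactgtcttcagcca
Prtn3: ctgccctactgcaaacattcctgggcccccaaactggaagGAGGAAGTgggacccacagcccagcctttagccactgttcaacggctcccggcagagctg
Cd72: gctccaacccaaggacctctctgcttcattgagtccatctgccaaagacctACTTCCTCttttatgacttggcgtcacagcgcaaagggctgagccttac
Ifi44: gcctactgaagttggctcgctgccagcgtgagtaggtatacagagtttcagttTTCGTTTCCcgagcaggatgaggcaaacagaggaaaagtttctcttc
Ebf1: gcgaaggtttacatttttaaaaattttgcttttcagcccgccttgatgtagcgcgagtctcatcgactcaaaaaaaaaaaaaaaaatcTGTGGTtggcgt
Counted from the start site, the first capital stood at -224 in Mpo, -95 in Prtn3, -49 in Cd72, -47 in Ifi44 and -12 in Ebf1. The same PU.1 letters thus stood before 2 genes that fell and 1 that rose between CD127- and CD127+ LMPPs.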

How the data were processed

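1 table of probe set values for 10 arrays was deposited, and its values were taken as log2 signal from their range of 0.20433 to 14.79009. No source used here states the log base, summary method, normalization or genome build, and the program recorded in the submitters' processing notes is Affymetrix Power Tools. Array quartiles differed by at most 0.1252 log2, so no normalization was added. Precision is limited by how few arrays there are.

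Probe sets with 1 symbol (233753 of 269751) were averaged into 23152 genes. limma 3.58.1 in R 4.3.3 fitted 4 group means with default empirical Bayes (6 residual degrees of freedom), adjusted by Benjamini-Hochberg over all genes. The steps were tested on simulated data. Alternatives changed probe set summary, normalization, filter, variance model, arrays used, replicate block and threshold.

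Members and the 55 lists were chosen with earlier results of these data known. Named were the 15 largest non-overlapping calls in each direction (no predicted, small RNA or receptor segment genes), the 10 such calls under 1 log2 with the highest signal, the 4 sort markers, and up to 6 called members of each list or its largest difference. Uncalled members, given for context, and genes said to be named later lie outside this rule. The probe set fit was chosen after seeing the data.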

Additional observations from a re-analysis of the deposited data

Results flagged for a closer look

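Of the 35998 probe sets that carry no gene symbol or several, which entered no gene value, 14 were called between the LMPP groups in the probe set fit, all 14 higher in CD127+ LMPPs. They were counted because they lie outside the gene comparison. Of these, 8 carry no symbol and 6 carry several. The largest difference was that of probe set 17388686, with several symbols (4.58 log2, adjusted p = 0.0208 by limma), and among those with no symbol that of probe set 17340547 (4.17 log2, adjusted p = 0.0306). Another 91 called probe sets carry 1 symbol, and they belong to 44 genes.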

How the results depend on the processing

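The number of called genes moved with the processing. Against 341 (204 higher, 137 lower), it was 160 (94 and 66) with the median of a gene's probe sets and 88 (70 and 18) with the brightest probe set. It was 526 (225 lower) with the filter on dim genes, 581 (325 and 256) with limma's trend and robust settings, 169 (106 and 63) at 2-fold and 170 (101 and 69) with the replicate block. Leaving out single arrays gave 165 to 275 genes, 101 to 147 higher and 63 to 128 lower. Quantile normalization, median centring, array weights and the 6 LMPP arrays alone kept each count within 1.5 times. With median centring, though, 157 genes were called higher and 151 lower, so the excess of higher calls nearly went. The median difference over all genes was -0.07 log2 there. Of the 341 calls, 43 held in all 15 settings other than 2-fold, 335 under trend and robust and 69 under the brightest probe set. For the 43, genes that the filter on dim genes removed were counted as not held, although they were not tested there. With the brightest probe set 11 of the 341 calls changed sign, and among named genes the difference turned to 0.23 log2 for Clec7a, -0.0700 for Cpa3, 0.016 for Epha2 and -0.13 for Rhd, none of them called there, and the cause was not tested. Same-numbered arrays of the 2 groups did not deviate together (correlations across genes of 0.02, -0.01 and 0.04), so the numbers give no pairing for the replicate block. Of 128 named calls 67 held with each array left out. Signal near the low-signal limit leaves folds of dim genes as lower bounds, and many calls just under the threshold were lost with 1 array left out.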
